A study of Acartia tonsa with 26 samples.

Results

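Eggs of the calanoid copepod Acartia tonsa held in quiescence were compared with developing eggs at the start of cleavage, to see which transcripts of the early embryo were still present at a similar level in arrested eggs and which were not. The quiescent group was 3 libraries (replicates A, C and D) from eggs placed at 4 °C without oxygen and taken at 26 h, with gastrulation as the labelled stage. The cleavage group was 5 libraries (A to E) from subitaneous eggs, which develop without a pause, taken at 3 h at the labelled stage of 4 to 16 cells and kept at the growth conditions of the parent population (60 L tanks in the dark, salinity 32, 16.9 °C). The quiescent and cleavage groups thus differed at once in labelled stage, age, temperature and oxygen. Which of these goes with a change between the groups was not tested. Every library was an assemblage of whole eggs. The series' design text calls its replicates technical, and the spread and p-values below therefore cover such repeats and not independent cultures. The series holds 26 libraries in all; the 5 libraries of 7 h eggs, the developing gastrulae, and the 4 of 14 h eggs are used here only to place the same genes beside a developing embryo.

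The 2 deposited tables were joined into 9590 genes of a de novo assembly, and the 2084 genes with a value of 1 or more in at least 3 of the 8 libraries were tested. The other 7506 genes were not. Of those tested, 1189 reached a value of 1 in all 8 libraries and 166 in exactly 3. The third highest value of DN26428_c0_g1, just inside the threshold, was 1, and that of DN45437_c0_g1, just outside it, was 0.992. Genes that passed through 1 group alone had to differ: 176 passed through 3 h libraries only, and 32 through quiescent libraries only. Of these, 143 were called lower and 31 higher in the test below, and lists with 2 or more such members are marked. Of the genes named below, DN77402_c0_g1, DN12861_c0_g1, DN56949_c1_g1, DN21453_c0_g1, DN7325_c0_g1 and DN15684_c0_g1 had also entered through 3 h libraries only. Both tables list genes that the authors had already found to differ among these libraries, so calls in them do not count as separate evidence of a difference.

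An egg begins development on transcripts laid down by its mother, and in animals in general these are cleared as the embryo starts to transcribe its own genome. Cleavage divisions replicate DNA and assemble chromatin at a fast pace, so histones, cyclins and replication factors are typical of the maternal store. Quiescence in copepod eggs is an arrest imposed directly by the environment, in which development stops when cold or lack of oxygen sets in and can resume when conditions improve. Names given here are taken from the protein matches or domains listed in the assembly identifiers, present for 630 of the 2084 genes. An identifier can list several proteins, of which not all are named here. The names are those of related proteins and do not identify the gene.

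A value of 1 of the deposited normalized signal stood for 86.8 to 111 reads in these 8 libraries. The tabled genes held 5998140 to 6498764 reads in the quiescent libraries and 8765894 to 10572087 at 3 h, and their values summed to 55710 to 59059 in quiescent eggs against 85926 to 121740 at 3 h. The linker histone, cyclin and other cleavage genes described below were detected in all 3 h libraries. Matches to plastid proteins summed to 10.8 to 38.9 at 3 h and 37.6 to 55.5 in quiescent eggs over 10 genes. Whether they come from algal feed was not tested. Muscle protein matches were also present in the 4 to 16 cell eggs: the 85 myosin heavy chain matches summed to 600.2 to 1100 at 3 h and 868 to 1136 in quiescent eggs. In whole eggs, fewer cells of a type and less RNA per cell cannot be told apart.

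With the values as scaled by the authors, more of the tested genes were called lower than higher in quiescent eggs. In limma on log2(value + 1), 559 genes (26.8% of those tested) were lower and 171 (8.21%) were higher at a Benjamini-Hochberg adjusted p under 0.05, and 916 (44.0%) had an unadjusted p under 0.05. The median log2 change over all genes tested was -0.13. Groups did not overlap for 579 genes that were lower (27.8%) and 203 that were higher (9.74%). A count test on the whole reads recovered from the values, edgeR's quasi-likelihood test, called 547 genes lower and 148 higher. Quantile normalization, which forces all 8 libraries to 1 distribution, moved the median by 0.22 to 0.09 and called 457 lower and 405 higher. The balance of lower and higher calls therefore rests on the scaling between libraries. The selection of genes enters as well: 2039 of the 2084 genes tested were in the table of genes differing among subitaneous samples. The 45 genes in the other table alone gave 4 lower and 27 higher calls. The lean to lower calls is thus not read here as a trait of quiescent eggs. Over the whole series, some sample-sheet numbers of libraries A and B recur among C, D and E, and no label states a sequencing run. Among the 8 libraries compared, only quiescent A shares its number, with quiescent C. Among libraries C, D and E alone, 444 genes were lower and 131 higher; libraries A and B hold 1 quiescent library and gave a median log2 change of -0.26 with no test. Without quiescent library D, 114 genes were called higher.

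The interval of each change was then used to sort the genes. A gene was counted as lost when it was called lower and its 95% interval lay wholly below a log2 change of -1, as gained when it was called higher and the interval lay wholly above 1, and as kept when the interval lay wholly between these bounds. This gave 226 lost genes (10.8%), 38 gained (1.82%), 892 kept (42.8%) and 928 in none of these classes (44.5%). The kept class is wide because the added 1 narrows the changes of genes with low values; with 0.1 added it held 462 genes. Of the 892, 75 were also called lower and 23 higher, by less than a 2-fold change of value + 1. The values themselves can differ by more. DN5228_c0_g1, kept and called lower, had a mean 2.58-fold lower, at 1.3 and 0.502, and had entered through 3 h libraries only. Among the 552 genes with a 3 h mean of 10 or more, a bound chosen after the values were seen, 162 were lost (29.3%), 152 kept (27.5%), 5 gained (0.906%) and 233 in no class (42.2%). Of the 150 genes with a 3 h mean of 100 or more, 102 were called lower and 1 higher, 54 were lost and 30 kept. Under quantile normalization, however, 51 of these 150 were called lower and 39 higher. Both bounds pick genes by their 3 h values, 1 side of the comparison, which favours lower calls. The lean of these counts therefore cannot be read as a trait of genes with high values.

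**Figure D1:**
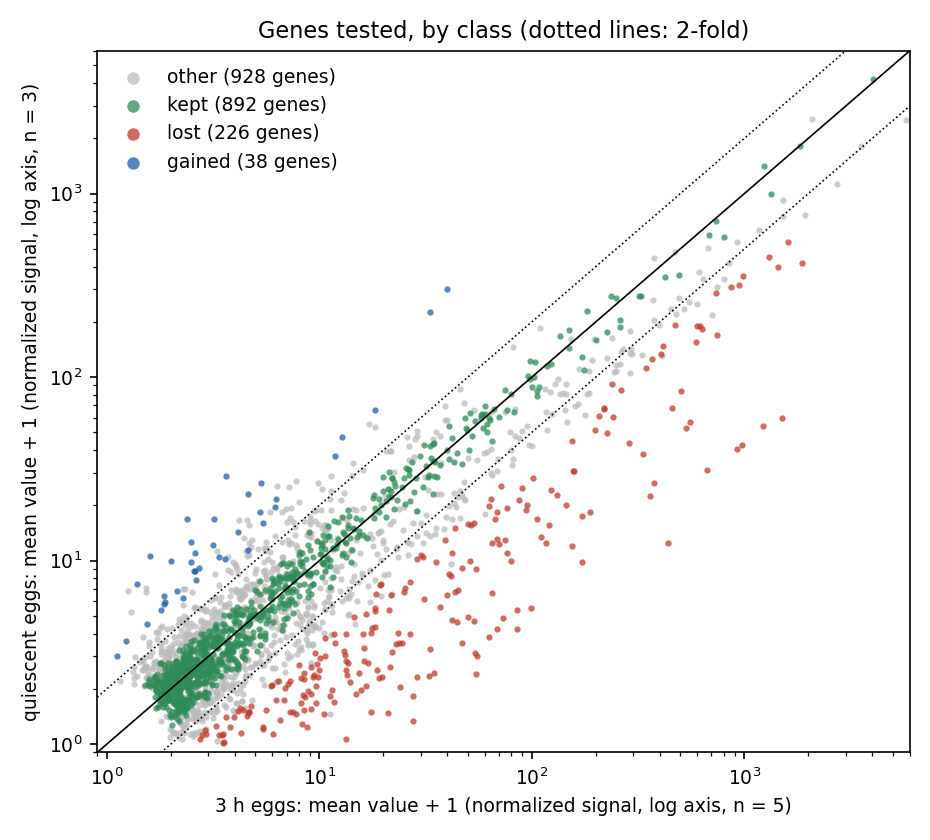
Mean value + 1 of each of the 2084 genes in 3 h eggs (horizontal, n = 5) against quiescent eggs (vertical, n = 3), both on log axes; the solid line marks equal values and the dotted lines a 2-fold difference. The 226 lost genes (red) spread down to the right, and 162 of them have a 3 h mean of 10 or more. Most of the 38 gained genes (blue) have low 3 h values.

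As a share of the summed signal of all tabled genes, the lost class took 30.7 to 33% in the 3 h libraries and 11.1 to 12.5% in the quiescent ones. The kept class took 20.3 to 22% at 3 h and 33.9 to 36.6% in quiescent eggs. The classes are defined by the change itself, and the larger share of the kept class goes with the lower total: its summed value had a median of 20381 at 3 h and 20314 in quiescent eggs. The gained class took 0.137 to 0.197% at 3 h and 1.61 to 2.03% in quiescent eggs. Over the lost genes the median of the group means was 25.6 at 3 h, 3.28 in quiescent eggs and 2.34 at 7 h. Over the gained genes it was 1.68, 9.79 and 2.03. The median of the lost genes was thus low in developing 7 h eggs as well as in quiescent eggs. Whether arrest had a part in their lower quiescent values was not tested. A predicted signal peptide, which marks proteins sent to the secretory pathway, was present in 52 of the 226 lost genes (23.0%), 157 of the 892 kept genes (17.6%) and none of the 38 gained genes, against 303 of all 2084 (14.5%). Only 44 of the lost genes carried a protein match or domain, as did 16 of the gained and 341 of the kept genes.

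The genes that follow are ordered by what their matches are known to do, starting with those of the dividing nucleus. Counts called in each list are to be set beside the 26.8% lower and 8.21% higher of all genes tested. Linker histones bind the DNA that enters and leaves the nucleosome and compact chromatin. All 6 linker histone genes tested were called lower, all 6 were lost, and their median log2 change was -3.57 against -0.13 for all genes; 2 of them, DN11161_c0_g1 and DN12273_c0_g1, had passed the threshold through 3 h libraries only. DN3534_c3_g1, which matches sea urchin H1, had values of 416, 328, 395, 391 and 344 in the 3 h libraries and 24.4, 26.9 and 25.5 in the quiescent ones. Every quiescent library lay far below every 3 h library, and the log2 change was -3.82 ± 0.12 (SE; limma adjusted p = 4.89e-07), a mean 14.6-fold lower. The 7 h mean of this gene was 11.4 ± 3.36 (SD, n = 5). DN4693_c1_g1 had 65.4, 54.4, 66.9, 64.6 and 56.7 at 3 h and 1.89, 3.71 and 2.92 in quiescent eggs. This was a log2 change of -4.05 ± 0.18 (limma adjusted p = 9.52e-07), again with no overlap. DN25658_c0_g1 fell from 72.2 ± 8.47 to 3.85 ± 1.91 and DN12273_c0_g2 from 64.2 ± 9.11 to 5.61 ± 2.03 (mean ± SD, n = 5 and 3), with log2 changes of -3.99 and -3.33. Such genes resemble each other, so reads could have been divided among near-identical copies, and the family is better described by its sum: 499.8 to 637 at 3 h, 35.3 to 40.7 in quiescent eggs and 14.8 to 22.4 at 7 h.

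Core histones are the proteins around which DNA is wound. Of 8 tested, 4 (50%) were called lower, 0 higher, and the median log2 change was -0.79. Quantile normalization left 1 called lower and 1 called higher. Histone H3.3 is the form of H3 that is deposited outside of replication. Its match DN2548_c1_g1 had 340, 408, 466, 384 and 415 at 3 h and 122, 150 and 126 in quiescent eggs, without overlap. The log2 change was -1.59 ± 0.13 (limma adjusted p = 2.49e-05), and the 7 h mean, 136 ± 17.3, was near the quiescent mean of 133 ± 14.7. The other H3.3 match, DN4222_c1_g1, was more variable, with 503, 617, 1020, 664 and 710 at 3 h against 98.1, 334 and 220. Library C was highest in both groups, and the change of -1.82 ± 0.38 (limma adjusted p = 0.00555) did not pass the bound for lost genes; its call ended under quantile normalization.

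Proteins that read or modify chromatin were lower in 8 of 10 cases (80%), with a median log2 change of -0.76 and 0 higher. Of the 8, 4 had entered through 3 h libraries only. DN542_c0_g1, which matches the heterochromatin protein family that binds methylated histone tails (CBX1 and CBX3 in mouse), had 16.7, 16.2, 18.3, 16.3 and 18.5 at 3 h and 3.22, 3.51 and 3.35 in quiescent eggs. The values were tight in both groups and differed by -2.06 ± 0.13 on the log2 scale (limma adjusted p = 4.72e-06). DN77402_c0_g1, with the same kind of match, fell from 2.15 ± 0.572 to 0.38 ± 0.257. UAF30, in yeast a subunit of the factor that recruits RNA polymerase I to the ribosomal RNA genes, was a protein match of 11 genes. These did not move together: 4 (36.4%) were called lower, 0 higher and 4 were kept. Under quantile normalization their median moved from -0.32 to 0.46, with 1 called lower and 4 higher. DN2252_c0_g1 had 639, 764, 860, 667 and 744 at 3 h and 313, 280 and 269 in quiescent eggs, a log2 change of -1.35 ± 0.13 (limma adjusted p = 4.62e-05), a call that ended under quantile normalization and in the fit over all 26 libraries. DN56949_c1_g1, a gene of low values, fell from 6.28 ± 1.55 to 0.492 ± 0.41. In contrast DN108694_c0_g1 was among the kept genes, as described below.

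Cell cycle and replication genes were called lower in 9 of 13 cases (69.2%) and higher in 1 (7.69%), with a median of -0.59. Of the 9, 2 had entered through 3 h libraries only. Cyclin B is the partner of the kinase that drives entry into mitosis. Its match DN1814_c0_g1 had 16.3, 17.4, 21.2, 16.9 and 15.3 at 3 h and 5.63, 5.7 and 5.39 in quiescent eggs. The groups lay well apart, with a log2 change of -1.48 ± 0.14 (limma adjusted p = 6.3e-05). The 7 h eggs lay lower still at 3.12 ± 0.225, and in the fit over the 13 libraries of the 3 groups quiescent eggs were above them by 0.68 on the log2 scale (limma adjusted p = 0.002). DN3353_c0_g2, which matches RCC1, the nuclear exchange factor of the Ran GTPase, fell from 16.0 ± 2.03 to 6.27 ± 0.135 (log2 change -1.22 ± 0.15). The exception was DN17026_c0_g1, a match to the large subunit of ribonucleotide reductase, which makes deoxynucleotides. It had 3.87, 3.03, 1.97, 1.74 and 2.42 at 3 h and 5.57, 4.45 and 4.07 in quiescent eggs, and it rose by 0.68 ± 0.22 (limma adjusted p = 0.0388). Leaving out any 1 of the quiescent libraries, or 3 h C, D or E, ended this call.

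**Figure D2:**
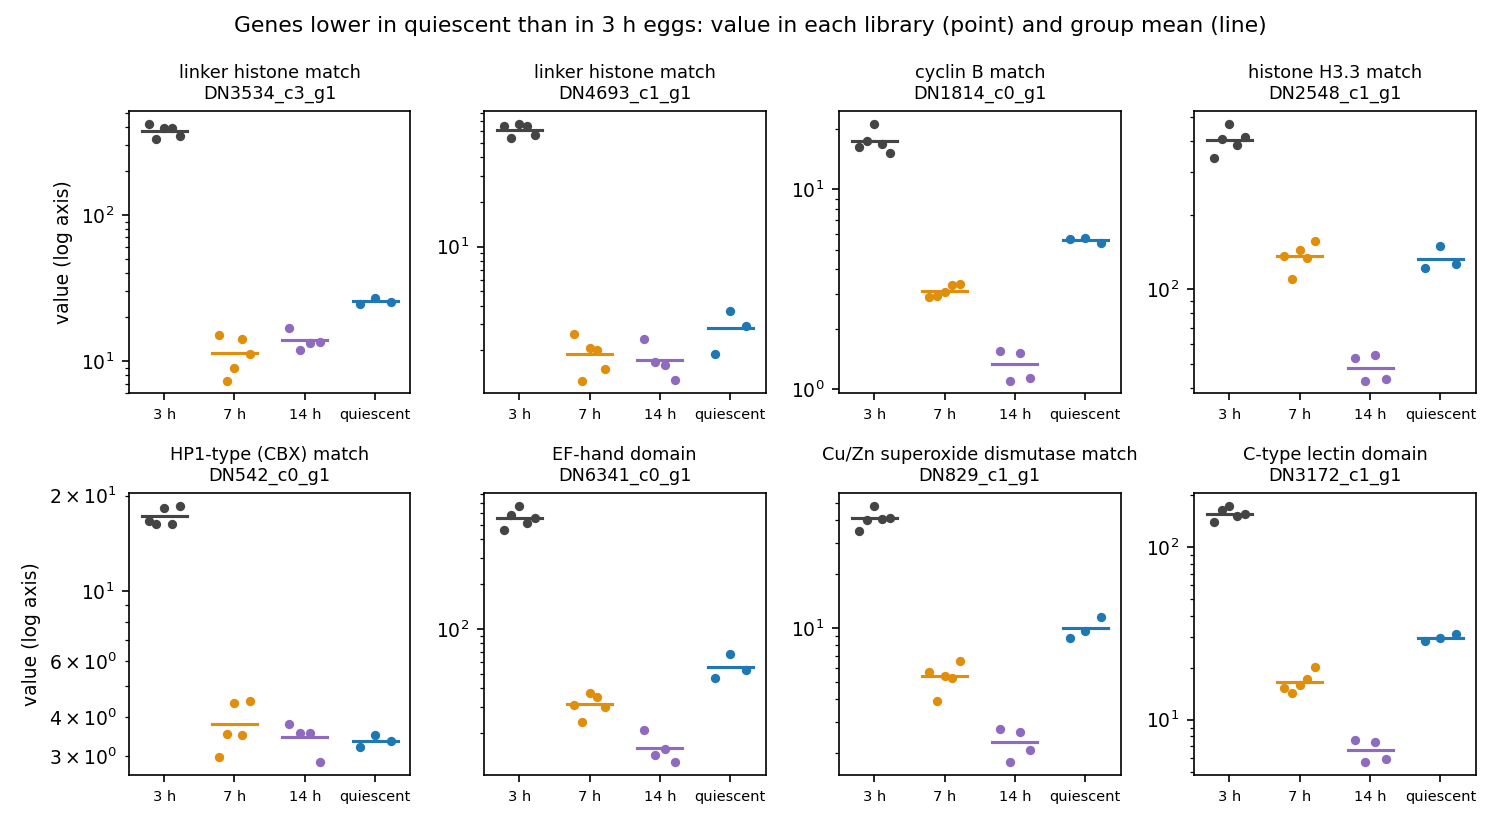
Value in each library (points, log axis) and group mean (line) of 8 genes that were lower in quiescent than in 3 h eggs, with the 7 h and 14 h eggs between. For each gene the 3 quiescent libraries lie below all 5 of the 3 h libraries and nearer to the 7 h libraries.

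Genes whose matches act on RNA or on transcription followed. Of 18 matches to transcription factors and developmental signals, 12 (66.7%) were called lower and 0 higher, and the median log2 change was -0.68. Of these 12, 7 had entered through 3 h libraries only. DN7151_c0_g1, a zinc finger match to SP4, had 5.72, 6.4, 6.54, 5.53 and 5.02 at 3 h and 0.701, 0.818 and 0.709 in quiescent eggs. With no overlap and a change of -1.97 ± 0.13 it was lost, though it had entered through 3 h libraries only, and its 7 h mean was 0.182 ± 0.0522. DN12861_c0_g1, which matches the zinc finger protein PRDM14, fell from 2.27 ± 0.329 to 0.25 ± 0.0246. Among 10 RNA binding and splicing genes, 2 (20%) were called lower and 0 higher, with a median of -0.13 that became 0.17 under quantile normalization. One of them, DN8530_c0_g1, a match to the splicing factor SPF30, went from 6.28 ± 0.326 to 1.2 ± 0.164 (log2 change -1.73 ± 0.13). Of 3 germ line and small RNA genes 1 was called lower: DN10564_c0_g1, a match to the germ cell RNA helicase Vasa (DDX4), which fell from 1.9 ± 0.366 to 0.502 ± 0.0455 (log2 change -0.94 ± 0.13) and had entered through 3 h libraries only.

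Genes of protein turnover and of secreted or membrane proteins are given next. Of 14 ubiquitin and ubiquitin ligase genes, 6 (42.9%, against 26.8% of all genes tested) were called lower and 0 higher (median -0.62), 4 of them entered through 3 h libraries only. The F-box gene DN9784_c0_g1, of a class of ligase adaptors, fell from 8.77 ± 1.09 to 1.74 ± 0.252, and DN13377_c0_g1, which matches the cullin adaptor SPOP (roadkill in the fly), from 4.9 ± 0.755 to 1.06 ± 0.124. A Kazal domain gene, of a family of serine protease inhibitors, showed 1 of the largest falls. This gene, DN4817_c0_g1, had 23.9, 26.3, 32.6, 27.3 and 28.4 at 3 h and 0.954, 1.54 and 1.45 in quiescent eggs, a log2 change of -3.64 ± 0.16 (limma adjusted p = 9.37e-07). Its highest quiescent value was below every 3 h value by a wide margin. Of 19 proteases 6 (31.6%) were called lower and 0 higher, 5 of the 6 entered through 3 h libraries only, and DN7325_c0_g1, a trypsin-domain match, went from 6.52 ± 0.535 to 0.502 ± 0.0315.

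Sugar-binding C-type lectin domain genes were called lower in 5 of 12 cases (41.7%) and higher in 0 (median -0.46), and 3 were lost; 2 of the 5 had entered through 3 h libraries only. DN3172_c1_g1 had 138, 163, 172, 150 and 156 at 3 h and 28.4, 29.6 and 31.4 in quiescent eggs. The groups were separate, with a log2 change of -2.35 ± 0.12 (limma adjusted p = 1.73e-06), and the 7 h mean was 16.5 ± 2.26. DN2045_c0_g1, a match to the mannose receptor family, fell from 18.8 ± 1.78 to 1.32 ± 0.0477. Of 4 genes with fibronectin type 2 domains, which bind collagen, 1 (25%) was called lower: DN4094_c0_g1 fell from 43.3 ± 4.07 to 3.61 ± 0.664 (log2 change -3.27 ± 0.15). All 3 genes with the domain of lytic polysaccharide monooxygenases, enzymes that break chitin or cellulose by oxidation, were called lower. Of these DN227_c1_g1 fell from 25.6 ± 3.74 to 6.68 ± 0.258 and DN2498_c0_g1 from 37.9 ± 6.64 to 11.9 ± 0.807. Both were above their 7 h means of 3.09 ± 0.353 and 3.48 ± 0.937 (limma adjusted p = 0.00055 and 0.0001 for quiescent against 7 h).

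The calcium-binding EF-hand gene DN6341_c0_g1, with a signal peptide, had 456, 576, 665, 512 and 557 at 3 h and 46.7, 67.6 and 53.2 in quiescent eggs. It was lost, with a change of -3.29 ± 0.16 (limma adjusted p = 1.76e-06), and stood at 31.3 ± 5.09 at 7 h. DN362_c0_g1, with the OS-D domain of small secreted proteins first known from insect sense organs, fell from 53.8 ± 11 to 8.03 ± 1.46. The falls with the largest log2 changes also included DN10844_c0_g1 (a match to serum response factor-binding protein), DN1165_c1_g1 (a domain of unknown function) and DN3508_c4_g1 (a match to a plant proline-rich protein). Their log2 changes were -2.88, -2.70 and -2.64, and none of the 3 overlapped between groups.

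Lipid and transport genes came next. Of 9 lipid and yolk genes 3 (33.3%, against 26.8% of all genes tested) were called lower and 0 higher (median -0.70). Of these 3, 2 had entered through 3 h libraries only. The lipase match DN4455_c0_g1 had 8.14, 9.09, 9.17, 8.65 and 8.2 at 3 h and 0.505, 0.836 and 0.682 in quiescent eggs, without overlap (log2 change -2.53 ± 0.13); it had entered through 3 h libraries only. The saposin match DN7020_c0_g1, of a family that helps degrade sphingolipids, fell from 2.2 ± 0.433 to 0.469 ± 0.534; quiescent library D, at 1.09, lay above A and C at 0.168 and 0.154, and the call ended with libraries C, D and E alone, with the library letter as a replicate block and in fits over 25 (42 h D left out) and all 26 libraries of the series. Of 17 transporters 7 (41.2%) were called lower and 0 higher (median -0.43, with 2 of the 7 entered through 3 h libraries only). Among them were the glucose transporter match DN18580_c0_g1, from 63.6 ± 17.3 to 28.1 ± 5.27, and DN641_c0_g1, from 38.3 ± 2.03 to 16.3 ± 0.618. The identifier of DN641_c0_g1 joins a nucleotide-sugar transporter family match with one to an NAD synthesis enzyme. The call of DN18580_c0_g1 ended under quantile normalization and with the replicate block. Both transposon-type genes tested were called lower: DN16082_c0_g1, which also carries a Kazal domain, fell by 1.85 on the log2 scale, and DN5594_c0_g1 went from 288 ± 37.2 to 177 ± 15.7 (log2 change -0.69), a direction that became 0.45 under quantile normalization.

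Antioxidant genes were called lower in 2 of 8 cases (25%, near the 26.8% of all genes tested) and higher in 0 (median -0.22). The copper-zinc superoxide dismutase match DN829_c1_g1, an enzyme that removes superoxide, had 35.1, 40.3, 48.1, 40.5 and 41.1 at 3 h. The quiescent values were 8.86, 9.66 and 11.6, all below the 3 h range, and the log2 change was -1.93 ± 0.15 (limma adjusted p = 1.58e-05). Quiescent eggs were above the 7 h mean of 5.37 ± 0.943 by 0.80 (limma adjusted p = 0.0026). The selenoprotein M match DN1945_c1_g1 fell from 24.7 ± 3.26 to 11.6 ± 0.468. Of the 3 ferritins, iron storage proteins, 1 was called lower, DN3233_c0_g1, from 5.81 ± 0.508 to 3.79 ± 0.532; this call ended without 3 h B, quiescent A or quiescent C, and under quantile normalization. Among 18 ankyrin repeat genes 2 (11.1%) were called lower and 0 higher (median -0.33). The largest change was in DN5349_c0_g1, a match to the kinase DAPK1, at -2.21 ± 0.16. Only 13 of 394 ribosomal protein genes of the tables passed the threshold on values, and 1 of them, DN15684_c0_g1, was called lower (1.85 ± 0.745 to 0.717 ± 0.107), a call that ended without 3 h E or any 1 of the quiescent libraries. The only tested gene of 27 in the glycolysis and respiration list, the malic enzyme match DN509_c2_g1, was kept at 5.85 ± 0.681 and 4.78 ± 0.249.

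The largest falls of all were in genes with no protein match. DN9751_c0_g1 had 375, 396, 467, 470 and 480 at 3 h and 7.1, 12.5 and 15 in quiescent eggs. It differed by -5.18 ± 0.22 on the log2 scale (limma adjusted p = 9.37e-07), a mean 38-fold lower, and lay below its 7 h mean of 21.4 ± 4.75 as well (log2 change -0.86, limma adjusted p = 0.015). DN5598_c0_g1 had 1255, 1444, 1863, 1488 and 1480 at 3 h against 41.7, 61.4 and 73.6, and DN5604_c1_g1 fell from 1227 ± 194 to 53.2 ± 18.9. Their log2 changes were -4.68 ± 0.20 and -4.55 ± 0.25. Both stood near their 7 h means of 51.8 ± 11.7 and 49.6 ± 11.7.

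Against these falls stood transcripts that quiescent eggs held near the 3 h level under the authors' scaling. The 10 kept genes with the highest 3 h means included 1 with a protein match. Values are not divided by transcript length, so they order genes by reads and not by number of transcripts. DN112079_c0_g1 had 3448, 4115, 4954, 3811 and 3742 at 3 h and 4857, 3864 and 3859 in quiescent eggs. The groups overlapped, the log2 change was 0.07 and its 95% interval ran from -0.25 to 0.38. The UAF30 match DN108694_c0_g1 had 1382, 1825, 2265, 1837 and 1824 at 3 h and 2029, 1712 and 1701 in quiescent eggs, also overlapping, with an interval from -0.35 to 0.36. DN3519_c0_g1, with a signal peptide, had 709, 766, 794, 640 and 763 against 602, 842 and 687 (interval -0.36 to 0.25). DN6984_c8_g1 had means of 1231 ± 168 and 1409 ± 110 (interval -0.11 to 0.52). Under quantile normalization each of the genes given here was called as different between the groups, so their likeness in level rests on the scaling.

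The kept class did not mean unchanged for all 10. DN3010_c0_g2, which has a signal peptide, had 1303, 1265, 1406, 1280 and 1395 at 3 h and 959, 965 and 1074 in quiescent eggs, with no overlap and a log2 change of -0.41 ± 0.09 (limma adjusted p = 0.00657). DN27758_c0_g1 had 800.0 ± 81.9 and 579 ± 133 (log2 change -0.48, limma adjusted p = 0.0485), and DN5158_c0_g1 494 ± 47.6 and 357 ± 25.9 (-0.46, limma adjusted p = 0.0126). These 3 genes were called lower, the call of DN27758_c0_g1 in 1 of the 8 fits that left out a library and that of DN5158_c0_g1 in all but the fit without quiescent D. All 3 turned positive under quantile normalization, with log2 changes of 0.45, 0.66 and 0.72. The remaining DN8297_c1_g1, DN24812_c0_g1 and DN8107_c0_g2 had log2 changes of -0.20, -0.27 and -0.23 and were not called. Quantile normalization called each of them as different between the groups. Compared with developing eggs, all 10 had a lower mean at 14 h than at 3 h. DN5158_c0_g1 stood at 564 ± 91.2 at 7 h and 76.4 ± 10.6 at 14 h, and DN112079_c0_g1 at 3070 ± 370 and 1004 ± 152. At 7 h the means went both ways. They were below the 3 h means for DN112079_c0_g1, DN108694_c0_g1, DN6984_c8_g1 and DN3519_c0_g1, and above them for the others. In those others quiescent eggs were below 7 h eggs, with log2 changes from -0.65 to -0.42 (limma adjusted p of 0.0013 to 0.027).

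**Figure D3:**
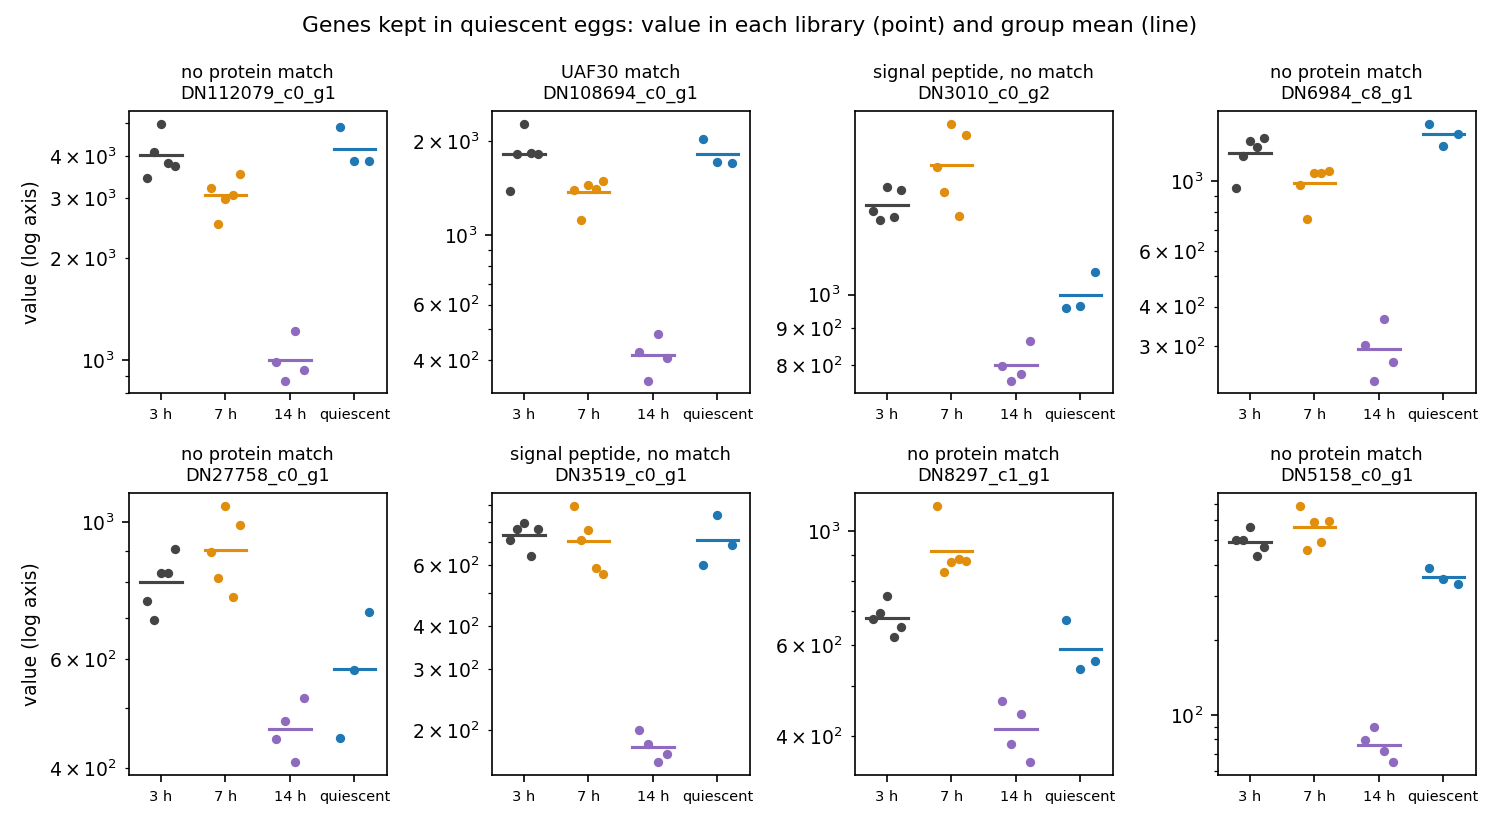
Value in each library (points, log axis) and group mean (line) of 8 of the 10 kept genes with the highest 3 h means, beside 7 h and 14 h eggs. Quiescent means lie between 0.72 and 1.14 times the 3 h means, and the 14 h libraries lie below all 3 h libraries for each gene.

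Cytoskeletal and muscle matches had counts that moved with the scaling and with the libraries fitted. Of 28 actins 20 were kept, 1 (3.57%) was called lower and 2 (7.14%) higher (median 0.05, and 0 lower with 11 higher under quantile normalization). Tubulins, the subunits of microtubules, were kept in 15 of 23 cases and called higher in 5 (21.7%), with 0 lower. Quantile normalization called 13 higher and the fit over all 26 libraries 2. DN29296_c0_g1, an alpha tubulin match, had 9.74, 10.9, 9.63, 10.7 and 13.3 at 3 h and 32.9, 39.1 and 37.0 in quiescent eggs. The groups were separate, with a log2 change of 1.66 ± 0.15 (limma adjusted p = 3.47e-05); the 7 h mean was 11.9 ± 4.6 and the 14 h mean 35.5 ± 12 (SD, n = 4). DN6798_c0_g1, another alpha tubulin match, rose from 3.59 ± 0.323 to 10.4 ± 0.594. Myosin heavy chain matches, the motor of muscle, numbered 85 tested genes, of which 45 were kept (median 0.31). Of the 85, 12 (14.1%, against 8.21% of all genes tested) were called higher and 4 (4.71%) lower. Median-ratio rescaling called 20 of these myosin genes higher and 4 lower, quantile normalization 32 and 1, and the fit over 25 libraries 10 and 0. DN18557_c0_g1 had 4.34, 3.32, 5.11, 6.54 and 2.24 at 3 h and 27.9, 17.9 and 30.1 in quiescent eggs, without overlap (log2 change 2.33 ± 0.30, limma adjusted p = 0.000341). DN585_c0_g2 rose from 1.59 ± 0.463 to 10.007 ± 2.52, whereas DN585_c0_g3 fell from 10.2 ± 1.5 to 6.21 ± 0.558 and DN12082_c0_g1 from 9.56 ± 1.58 to 4.87 ± 0.979. Their 7 h means were 4.15 ± 1.3, 16.0 ± 2.28 and 15.4 ± 1.13. The calls of both lower genes ended in the fits over 25 and all 26 libraries and with the replicate block, and that of DN585_c0_g3 also with libraries C, D and E alone, without the filter and under quantile normalization. Entries this numerous may be fragments or close copies of fewer genes, among which reads can be divided, so single myosin, actin and tubulin entries are uncertain.

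Of 37 other muscle protein matches, 5 (13.5%) were called higher and 0 lower (median 0.23). Median-ratio rescaling called 13 higher, quantile normalization 19 and the fit over 25 libraries 1. The 5 included the tropomyosin matches DN3166_c0_g1 (25.3 ± 5.69 to 41.0 ± 4.78) and DN530_c2_g1 (2.58 ± 0.502 to 4.74 ± 0.143). Of 31 cuticle and chitin genes 3 (9.68%, near the 8.21% of all genes tested) were called higher and 1 (3.23%) lower (median 0.09). Quantile normalization called 8 higher and 1 lower, and the fit over 25 libraries 0 and 0. DN559_c0_g1, a chitin-binding match, rose from 3.98 ± 1.25 to 7.52 ± 1.44. Several of these small rises depended on 1 library: the calls of DN3166_c0_g1 and DN559_c0_g1 were lost without quiescent C or D and without 3 h B or E, and that of DN559_c0_g1 also without 3 h A. These calls and that of DN530_c2_g1 also ended with libraries C, D and E alone, with the replicate block and in the fit over all 26 libraries. A plastid match, DN49480_c0_g1, was called higher (log2 change 1.99 ± 0.49, limma adjusted p = 0.0128), with 3 h D at 0.413 and the other 3 h libraries between 3.25 and 5.85 against 22.1, 12.5 and 12.4 in quiescent eggs. This call ended with libraries C, D and E alone and in the fits over 25 and all 26 libraries.

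Matches to proteins of autophagy and protein folding included genes that rose and genes that fell. The autophagy list held 6 tested genes, of which 5 (83.3%) were called higher and 1 (16.7%) lower, with a median log2 change of 1.29. All 5 of the higher genes match sequestosome-1 (p62), the receptor that brings ubiquitin-marked cargo to the autophagosome. These entries list different domains (PB1, UBA or none) and may be fragments or copies of fewer genes. DN2283_c0_g1 had 1.59, 1.46, 1.47, 1.51 and 1.37 at 3 h and 6.34, 7.88 and 12.4 in quiescent eggs. Every quiescent library was above the 3 h range, D most, and the log2 change was 1.95 ± 0.20 (limma adjusted p = 7.84e-05). DN1030_c0_g1 rose from 1.6 ± 0.162 to 7.8 ± 2.17 and DN3444_c0_g1 from 1.71 ± 0.352 to 8.1 ± 2.86, each with the highest value in quiescent D. Developing eggs had means of 1.49 ± 0.822, 1.36 ± 0.381 and 1.21 ± 0.57 for these 3 genes at 7 h, and of 26.6 ± 10.1, 13 ± 5.52 and 14.4 ± 7.07 at 14 h. The member that was lower, DN16280_c0_g1, matches LC3, the ubiquitin-like protein that coats the autophagosome membrane; it fell from 1.17 ± 0.228 to 0.088 ± 0.0368 (log2 change -0.99 ± 0.13), having entered through 3 h libraries only.

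Small heat shock proteins, which hold unfolded proteins in solution, split: of 6 tested 2 (33.3%) were called higher and 2 (33.3%) lower. DN1337_c0_g1, a match to fly HSP27, had 1.6, 1.31, 1.99, 1.46 and 1.42 at 3 h and 4.11, 10.8 and 8.4 in quiescent eggs, with a log2 change of 1.70 ± 0.26 (limma adjusted p = 0.000947). All quiescent values were above the 3 h range, and the 7 h mean was 1.51 ± 0.774. DN3843_c0_g1 rose from 1.27 ± 0.425 to 6.04 ± 2.82. It matches the fly protein encoded by lethal(2)essential for life, which is also listed for DN1337_c0_g1. In the other direction DN4793_c21_g1, a match to fly HSP26, fell from 4.33 ± 0.796 to 2.09 ± 0.381 and DN21453_c0_g1, a match to HSPB1, from 1.21 ± 0.331 to 0.377 ± 0.116. The first of these calls ended with the replicate block and in the fit over all 26 libraries, and the second with libraries C, D and E alone.

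HSP70 chaperones refold proteins with energy from ATP. Of 15 tested 5 (33.3%) were called higher and 1 (6.67%) lower, with a median log2 change of 0.64. Quantile normalization called 9 higher and 1 lower. DN1676_c1_g1 had 5.24, 4.4, 4.4, 3.8 and 4.16 at 3 h and 14.1, 10.9 and 19.9 in quiescent eggs. The groups were separate (log2 change 1.53 ± 0.20, limma adjusted p = 0.000352), and 7 h and 14 h eggs had means of 4.46 ± 1.47 and 31.8 ± 11.5. DN2709_c2_g2 rose from 2.61 ± 0.33 to 9.2 ± 2.72. The gene that was lower, DN8447_c0_g1, has a fly HSP70 match that is also listed for DN1676_c1_g1. It had 59.7, 61.8, 78.4, 56.4 and 59.2 at 3 h and 23.4, 18.8 and 19.9 in quiescent eggs, a log2 change of -1.56 ± 0.15 (limma adjusted p = 6.04e-05). Quiescent eggs were also below its 7 h mean of 30.8 ± 2.46 (log2 change -0.55, limma adjusted p = 0.0094). Among 5 other chaperones 1 was called lower, DN10337_c0_g1, at 1.89 ± 0.13 and 1.19 ± 0.0876, a call that ended under median-ratio and quantile scaling and without 3 h E, quiescent C or quiescent D.

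**Figure D4:**
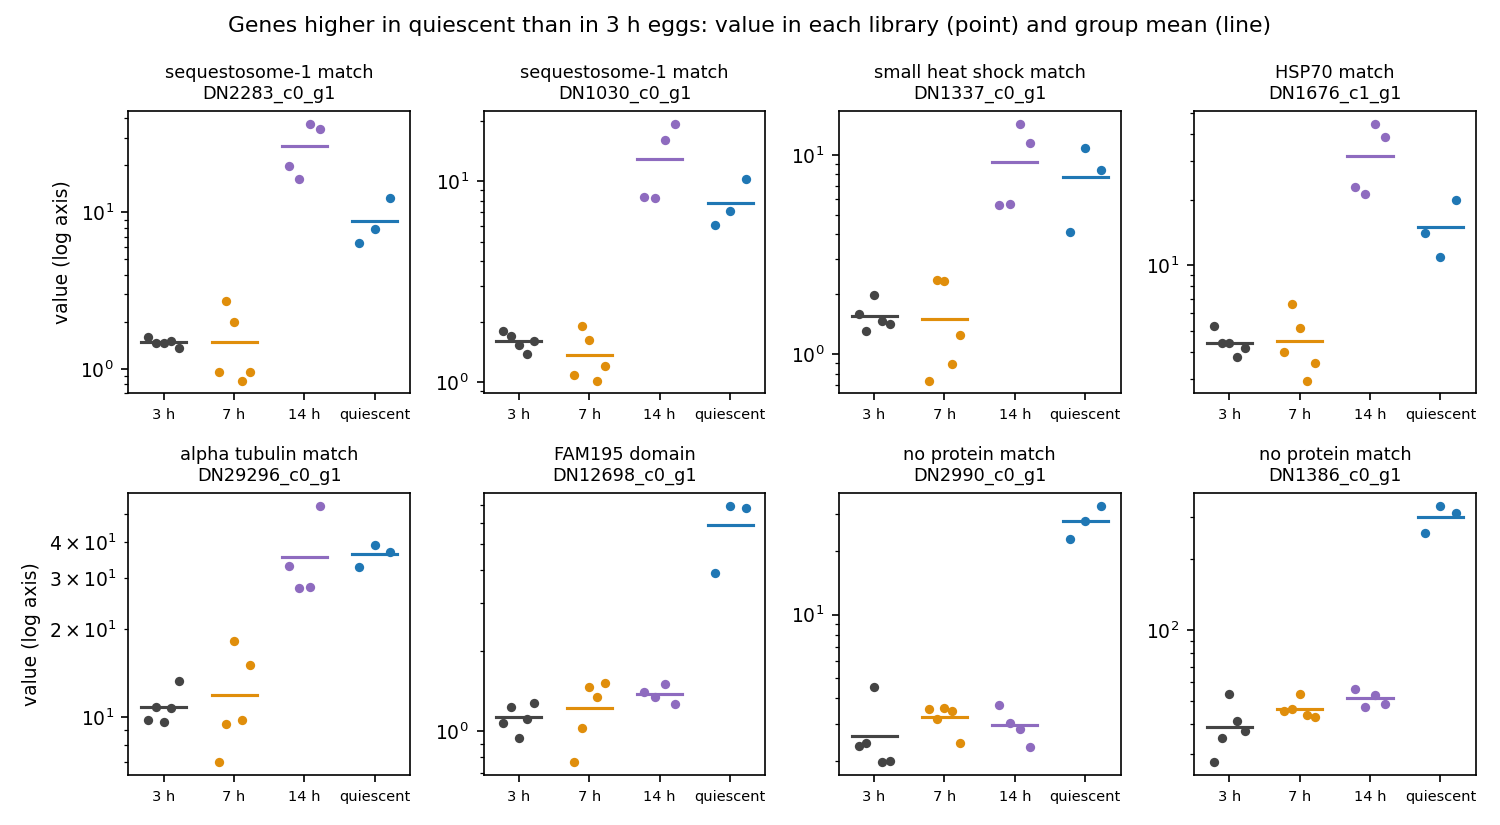
Value in each library (points, log axis) and group mean (line) of 8 genes that were higher in quiescent than in 3 h eggs, beside 7 h and 14 h eggs. The sequestosome-1, heat shock and tubulin matches are also high at 14 h (26.6 for DN2283_c0_g1). DN12698_c0_g1, DN2990_c0_g1 and DN1386_c0_g1 are high in the quiescent libraries alone among these 4 groups. The authors had selected these last genes as differing between quiescent eggs and 7 h and 14 h eggs.

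A few genes were high in quiescent eggs and low at 3 h, 7 h and 14 h alike. The authors had selected those named here only as differing between quiescent eggs and 7 h and 14 h eggs. Their contrast with 7 h and 14 h eggs was thus a condition of entry and is no separate evidence. DN12698_c0_g1, with the FAM195 domain of a family of small proteins named MCRIP in mammals, had 1.08, 1.24, 0.944, 1.11 and 1.27 at 3 h and 3.88, 6.92 and 6.78 in quiescent eggs. The log2 change was 1.66 ± 0.18 (limma adjusted p = 0.000137), without overlap, and the means at 7 h and 14 h were 1.23 ± 0.318 and 1.38 ± 0.0964. DN2990_c0_g1, with no protein match, had 2.35, 2.43, 4.49, 1.97 and 2.0 at 3 h against 22.8, 27.8 and 32.9. This was 1 of the largest rises, at 3.01 ± 0.24 (limma adjusted p = 1.88e-05), and the 7 h and 14 h means were 3.25 ± 0.472 and 2.99 ± 0.573. DN1386_c0_g1, also without a match, had 27.5, 35.1, 53.5, 41.2 and 37.5 at 3 h and 257, 335 and 314 in quiescent eggs. It rose by 2.95 ± 0.21 (limma adjusted p = 1.13e-05), with 46.4 ± 4.38 at 7 h and 51.3 ± 4.2 at 14 h. The largest estimate, 3.19 ± 0.91 for DN16696_c1_g1, was the least certain. This gene had 4.2, 6.61, 65.0, 37.1 and 48.2 at 3 h, low in A and B, and 169, 393 and 117 in quiescent eggs, and its call was lost without quiescent A or without quiescent C.

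**Figure D5:**
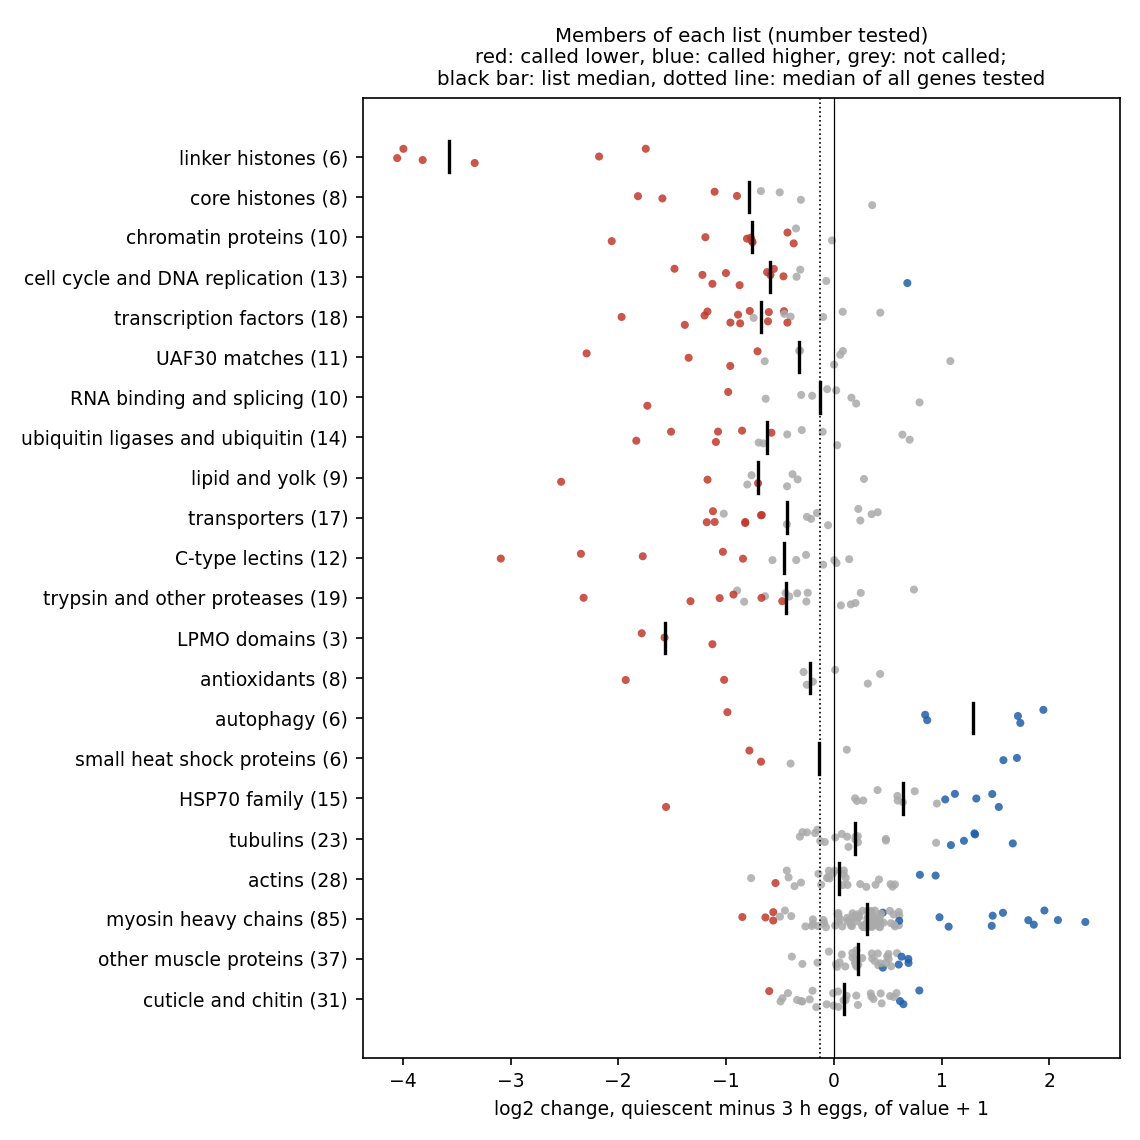
Log2 change (quiescent minus 3 h eggs, of value + 1) of each tested member of 22 lists, coloured by call, with the list median (black bar) and the median of all genes tested, -0.13 (dotted). The 6 linker histones lie furthest to the lower side. The autophagy, HSP70, tubulin, actin, myosin heavy chain, other muscle protein and cuticle lists have most of their called members on the higher side.

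The same 2084 genes were then set beside 7 h eggs. They had been chosen by their values in quiescent and 3 h libraries, so genes high at 7 h alone were not tested and the balance of the counts cannot be read. Quiescent eggs were lower in 120 (5.76%) and higher in 468 (22.5%) in the fit over 13 libraries, which shares the quiescent libraries with the comparison to 3 h eggs. The median log2 change against 7 h was 0.23.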

How the data were processed

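RNA-seq libraries of whole A. tonsa eggs were analysed from 2 tables that the authors deposited, with normalized signal values of 26 libraries in each. Per the labels, 1 table (9502 genes) holds transcripts selected as differing among subitaneous samples and the other (2777 genes) transcripts selected as differing between quiescent eggs and 7 h and 14 h eggs. The 2689 shared genes had identical values in both. Tools in the submitters' processing notes are bcl2fastq and edgeR. Not given in the sources used here are the aligner, the counting tool, its strand setting and how libraries were scaled. The signal the authors deposited keeps whole reads: of the values of up to 2000 reads, 100% were whole within 0.1 read in each of the 8 libraries. The tables hold selected genes, so full depth is not known from them. All columns used were matched to samples by name (0 columns were unmatched).

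Quiescent (A, C, D) and 3 h (A to E) libraries were compared on the log2(value + 1) scale in limma 3.58.1 under R 4.3.3, using a term for group, trended and robust eBayes, and Benjamini-Hochberg adjustment over the 2084 genes tested. Log2 changes are on this scale, understate changes of low genes, and carry the standard error of the fit; levels are mean ± SD of deposited values. Intervals are not adjusted over genes. Quiescent and 7 h eggs were compared in a 13-library fit with 3 groups. The fit was tested on simulated data. Alternatives were edgeR 4.0.16 and DESeq2 1.42.0 on recovered reads with the authors' scaling, other scalings, pseudocounts, filters, sample sets and blocks.

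The genes and lists were chosen with earlier results of these data known, and the lists were trimmed after the tables had been read. Genes named were those with a match or domain, called and without overlap, with the 12 largest falls and rises; the 10 kept genes with the highest 3 h means; the 3 largest falls and rises without a name; and the 2 called members of each list with the largest change in each direction.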

Additional observations from a re-analysis of the deposited data

Results flagged for a closer look

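Of 93 named genes, 7 had a 3 h library that stood apart from the other 4 by Dixon's test, which chance does in about 1 in 20 groups. In 6 of them the library was 3 h C. It was the highest for DN5896_c0_g1 (33.3, next 15.9), DN2990_c0_g1 (4.49, next 2.43), DN8447_c0_g1 (78.4, next 61.8), DN1612_c1_g1 (2.6, next 1.75) and DN4939_c1_g1 (3.97, next 3.12), and the lowest for DN10337_c0_g1 (1.66, next 1.9). For DN3508_c4_g1 it was 3 h A (12.6, next 10.04). Library 3 h C also had the largest summed value, 121740; without it 562 genes were called lower and 204 higher. Its part in these genes beyond those counts was not tested.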

How the results depend on the processing

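Of the 85 named genes that were called, 56 were called in each of the 23 alternatives with a test, where the gene was in it. The log2 change of 4 named genes reversed, each under quantile normalization alone: DN3010_c0_g2 log2 change 0.45, DN27758_c0_g1 log2 change 0.66, DN5158_c0_g1 log2 change 0.72 and DN5594_c0_g1 log2 change 0.45. Genes called higher numbered 66 with all 26 libraries in the fit, 116 without 42 h D, 262 with median-ratio rescaling, 405 with quantile normalization and 79 with a filter at a value of 5. Kept genes numbered 278 with all 26 libraries, 429 with edgeR, 473 with DESeq2, 462 with a pseudocount of 0.1, 277 with the filter at 5 and 8091 with no filter. Gained genes numbered 16 with all 26 libraries, and genes lower 387; the filter at 5 left 369 lower and 25 gained. The quiescent table alone holds fewer genes and gave 196 lower, 70 higher, 75 lost, 157 kept and 22 gained; the subitaneous table alone gave 23 gained. For quiescent against 7 h eggs, the 588 calls became 371 without 42 h D and 110 with all 26 libraries, alternatives chosen after seeing the data. Apart from the smaller tables and filters, the cause of these shifts was not tested.

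Leaving out each library in turn gave 510 to 562 genes lower, 114 to 204 higher, 213 to 234 lost, 736 to 911 kept, 26 to 40 gained, and a median change of -0.17 to -0.06. The lowest counts of higher genes came without quiescent D (114) and without quiescent C (123). For quiescent against 7 h eggs the range was 425 to 663. With the letter as a replicate block, 410 genes were lower, 120 higher, 199 lost, 37 gained and 741 kept. Deviations of same-letter libraries correlated at 0.0847, 0.0710 and 0.239 for A, C and D. Quiescent A correlated best with 3 h B (0.298) and quiescent C with 3 h D (0.283), while quiescent D correlated best with its own letter. Deviations from the means of groups this small cannot settle whether the letters are pairs, and the main fit did not treat them as such.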
